A study of Mus musculus with 3 samples.

Results

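In immortalized lymphatic endothelial cells of mouse skin (imLECs), the receptor side of the Wnt pathway was described through 10 genes: the Frizzled receptors Fzd1, Fzd2, Fzd4, Fzd6 and Fzd7, the co-receptors Lrp5 and Lrp6, the R-spondin Rspo2, the ligand Wnt5a and the feedback gene Axin2. They were read in all 24 probe sets that the platform annotation assigns to them, of 45101 on the array, and are 10 of 18193 genes measured. The 3 samples form 1 group of normal cells: 1 culture each of passages 13, 14 and 18, sorted from the skin of H-2Kb-tsA58 ImmortoMice, whose cells carry a heat-labile T antigen driven by the interferon-inducible H-2Kb promoter. Cells grew at 33 °C with interferon-gamma on collagen and fibronectin, then spent 3 days at 37 °C without it, so every culture shares the transgene and its withdrawal. Because no culture was repeated at a passage, passage number and culture-to-culture variation cannot be told apart. The 10 genes were chosen by pathway with their signal intensities on these 3 arrays already known, so their levels are a description and carry no test.

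Wnt proteins bind the extracellular domain of a Frizzled, a multi-pass membrane receptor, together with Lrp5 or Lrp6. In the canonical branch this stops the destruction of β-catenin, which then joins TCF/LEF factors on target genes, Axin2 among them. R-spondins bind Lgr receptors and the ubiquitin ligases Znrf3 and Rnf43, and so keep Frizzleds at the cell surface. In mouse endothelium, Fzd4 with Lrp5 and Tspan12 is the receptor for Norrin, which is needed for retinal vessels.

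Each probe set has 1 deposited signal intensity per array, on a linear scale in arbitrary units, and levels were compared only within a probe set. Each array was given a floor, the 95th percentile of 44 genes that are restricted to other tissues, which came to 46.2, 49.2 and 49.2 units at passages 13, 14 and 18. Values under the floor are only upper limits. Of all genes, 9067 (49.8%) lay above it on all 3 arrays. The passage 18 array stood apart in RNA quality, with a Gapdh 3'/5' signal ratio of 19.4, against 8.59 at passage 13 and 7.10 at passage 14. The Actb 3'/5' ratio differed less, at 1.42 on that array, against 1.18 and 1.20 at passages 13 and 14. The Gapdh 3'/M ratio was also highest there (4.25, against 2.65 and 2.25 at passages 13 and 14). The Actb 3'/M ratio was lowest on that array (1.23, against 1.33 on both other arrays). Cell type markers differed on it as well. Of 19 pan-endothelial markers above the floor on all arrays, 18 were lower at passage 18 than at 13, where 51.1% of all detected genes were. Of 10 lymphatic markers above the floor on all arrays, 7 were lower at passage 18 than at 13 and 3 higher. At least 2-fold lower were 4 of these 10, where 2.03% of all genes were. The lymphatic markers Mmrn1, Reln and Itga9 were under the floor on all arrays. Prox1 (73.37, 34.55 and 48.55 units at passages 13, 14 and 18) passed it at passage 13 alone. Of 9 fibroblast markers above the floor, 8 were higher at passage 18 than at 13, where 48.4% of all genes were. The part of RNA quality and of these markers in the differences below was not tested.

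Of the 8 genes above the floor on all arrays, 5 (Fzd1, Fzd2, Fzd7, Lrp5 and Lrp6) were highest at passage 18, where 37.8% of all detected genes were. Highest at passage 14 were 2 (Fzd4 and Wnt5a, against 36.3% of all detected genes) and at passage 13 was 1 (Fzd6, against 25.5%). Of the 24 probe sets, 14 were above the floor on all 3 arrays, 1 at passage 18 alone and 9 on none. The counts of genes, unlike those of probe sets, take for each gene its brightest probe set by mean. By that probe set, Rspo2 was above the floor at passage 18 alone, and Axin2 on no array. Fzd4, Fzd6 and Wnt5a differed little between the cultures, whereas Fzd1 and Fzd2 were more than 2-fold higher at passage 18 than in either other culture by these probe sets.

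**Figure D1:**
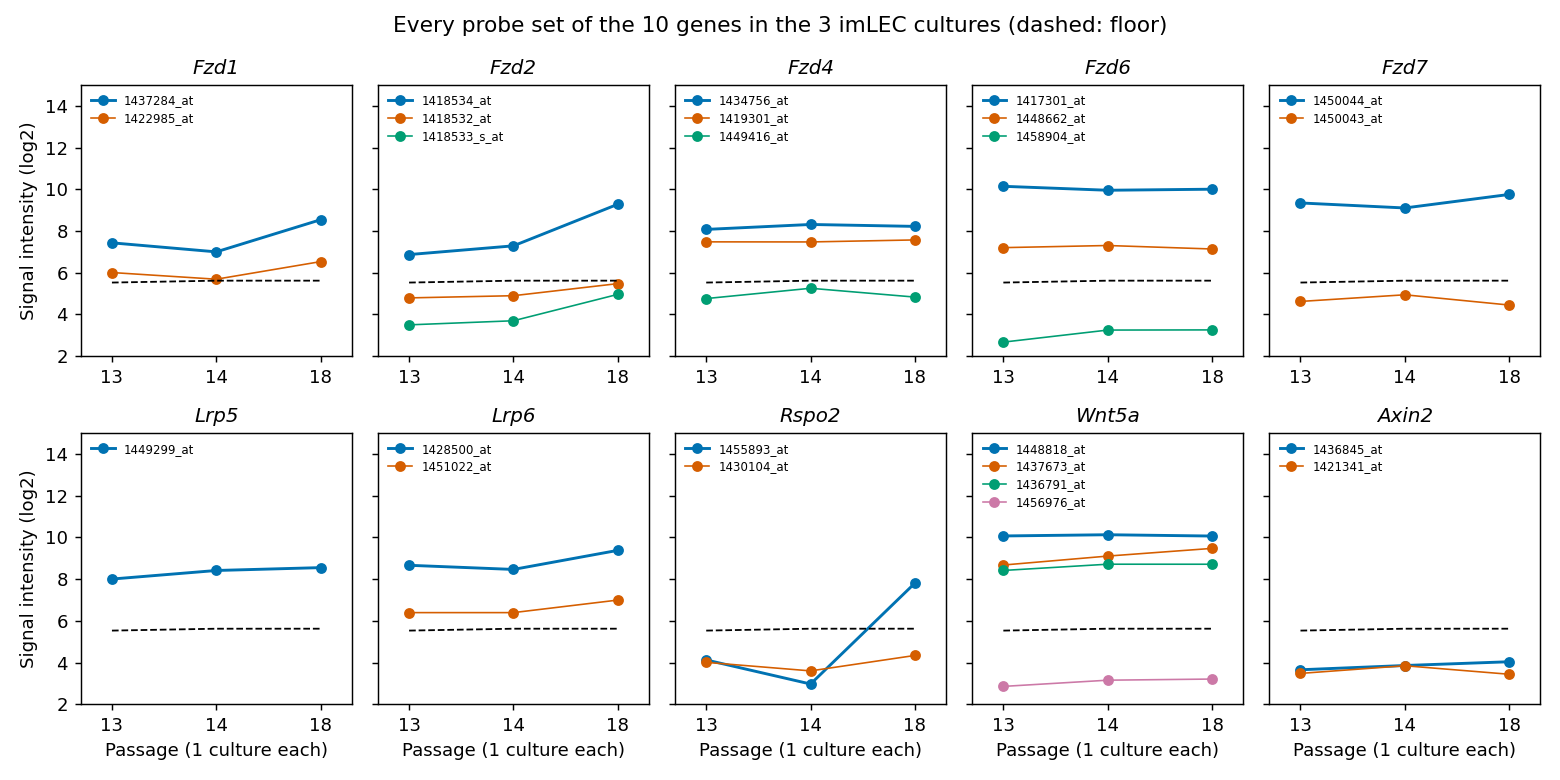
Signal intensity (log2, vertical axis) of each probe set of the 10 genes in the cultures of passages 13, 14 and 18, with 1 point per array and the floor as a dashed line. The thick line is the probe set with the highest mean: those of Fzd2 and Rspo2 are far higher at passage 18, those of Fzd4, Fzd6 and Wnt5a are nearly level, and both of Axin2 stay under the floor.

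Among the Frizzleds, Fzd2 differed most by its brightest probe set. This receptor is a close relative of Fzd1 and Fzd7 and can signal through both branches of the pathway. Its probe set 1418534_at read 117 units at passage 13, 156.4 at passage 14 and 622.4 at passage 18. The passage 18 culture was thus well above the other two, which lay close together. Its signal at passage 18 was 5.32-fold that at passage 13 and 3.98-fold that at passage 14 (log2 differences of 2.41 and 1.99), and 1.34-fold higher at passage 14 than at 13. On the log2 scale it averaged 7.81 ± 1.29 (SD, n = 3). Only 0.0662% of the genes above the floor on all arrays had a larger absolute difference between passages 18 and 13, which ranks Fzd2 as number 7 of 9067. The other 2 Fzd2 probe sets were under the floor on all arrays. 1418532_at read 27.7, 29.8 and 44.6 units at passages 13, 14 and 18, and 1418533_s_at, whose name marks possible matches to several transcripts, read 11.3, 13.0 and 31.2. With the median of its 3 probe sets, the Fzd2 difference between passages 18 and 13 was 0.68 log2 units, a value that rests on a probe set under the floor, and that of Fzd1 with its 2 probe sets was 0.82.

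Fzd1 had a second pattern, with its lowest value at passage 14. Probe set 1437284_at read 172.8, 128.0 and 372.5 units at passages 13, 14 and 18 (log2 7.66 ± 0.79, SD, n = 3). The passage 18 signal was 2.16-fold that of passage 13 and 2.91-fold that of passage 14. The second probe set, 1422985_at, read 64.4, 51.6 and 92.6 units and so kept the same order, with ratios of 1.44 and 1.79. Both probe sets of Fzd1 therefore placed passage 18 highest and passage 14 lowest.

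Fzd7, known in the mouse for a role in intestinal stem cells, had the same order with smaller steps. Probe set 1450044_at read 649.8, 550.2 and 862.1 units at passages 13, 14 and 18 (log2 9.40 ± 0.33, SD, n = 3). Passage 18 was 1.33-fold above passage 13 and 1.57-fold above passage 14. The log2 difference between passages 18 and 13, 0.41, is within the SD of 0.454 that all 9067 genes showed between those arrays. The dimmer Fzd7 probe set, 1450043_at, was under the floor at 24.7, 30.8 and 21.9 units.

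Fzd4, the Norrin receptor, was nearly level. Probe set 1434756_at read 269.9, 318.0 and 298.4 units at passages 13, 14 and 18 (log2 8.20 ± 0.12, SD, n = 3). 1419301_at read 178.5, 178.0 and 190.3 units. The 2 probe sets disagree on which culture was highest, and neither spanned more than 0.24 log2 units. Probe set 1449416_at was under the floor with 27.1, 38.2 and 28.5 units.

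Fzd6, a receptor known in the mouse for planar polarity and hair orientation, was equally steady. Probe set 1417301_at read 1130, 991 and 1026 units at passages 13, 14 and 18 (log2 10.03 ± 0.10, SD, n = 3). 1448662_at read 147.3, 158.1 and 140.8 units and placed passage 14 highest instead of lowest. Their largest span was 0.19 log2 units, so no order of the 3 cultures can be read for Fzd6. Of all genes above the floor, 86.1% had a larger SD over the arrays than Fzd6, and 80.6% a larger one than Fzd4. The remaining Fzd6 probe set, 1458904_at, read between 6.39 and 9.58 units, under the floor.

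Both Lrp co-receptors were highest at passage 18. Lrp6 read 404.2, 352.2 and 663.7 units at passages 13, 14 and 18 in probe set 1428500_at (log2 8.83 ± 0.48, SD, n = 3). In 1451022_at it read 83.9, 83.9 and 127.3 units. Passage 18 was 1.64-fold above passage 13 in the first and 1.52-fold above it in the second, so both probe sets put passage 18 highest by similar ratios. Lrp5, the co-receptor in Norrin signalling, has 1 probe set, 1449299_at, with 255.9, 340.1 and 374.0 units (log2 8.32 ± 0.28, SD, n = 3). Its passage 18 signal was 1.46-fold that of passage 13 and 1.10-fold that of passage 14. For Lrp5 the lowest value was thus that of the passage 13 culture, unlike for Lrp6. Lrp5 differed by 0.41 log2 units between passages 14 and 13 and by 0.14 between 18 and 14. These values are within the SDs of 0.482 and 0.680 that all 9067 genes showed between those arrays.

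Rspo2 was the one member above the floor in a single culture. Its probe set 1455893_at read 17.4 units at passage 13, 7.83 at passage 14 and 223.7 at passage 18. The first 2 values are under the floor, so the passage 18 signal is at least 4.84-fold above that of passage 13 and at least 4.55-fold above that of passage 14, counted against the floor. The second probe set, 1430104_at, read 16.1, 12.1 and 20.2 units and was under the floor on every array. The Rspo2 signal therefore rests on 1 probe set and 1 culture. That value passed the floor under every alternative floor and scaling tried.

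Wnt5a, a ligand known mainly for signalling without β-catenin, was above the floor in 3 of its 4 probe sets. The probe set 1448818_at was level, at 1071, 1115 and 1068 units at passages 13, 14 and 18 (log2 10.08 ± 0.03, SD, n = 3). 1436791_at read 340.5, 419.0 and 418.5 units. 1437673_at read 407.7, 548.8 and 708.6 units, which is 1.74-fold higher at passage 18 than at 13. The probe sets thus do not agree on the order of the cultures beyond passage 14 being above passage 13 in all 3. The remaining one, 1456976_at, stayed between 7.23 and 9.24 units, under the floor.

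Axin2, a scaffold of the β-catenin destruction complex and a common target of canonical signalling, was under the floor throughout. Probe set 1436845_at read 12.6, 14.5 and 16.4 units, and 1421341_at read 11.1, 14.4 and 10.8 units, at passages 13, 14 and 18. These values bound the transcript from above only, and no order can be drawn from them. Both probe sets stayed under the lower floor at the 90th percentile as well.

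Promoters from RefSeq (GRCm38.p6) were at hand for 4 of the 10 genes: Fzd1, Fzd4, Fzd7 and Axin2. The sequences below run from 250 bases before the start site to 50 bases after it, 5′ to 3′ on the gene's strand. Fzd1 and Fzd7 are shown because they had the same order of the 3 cultures, and Axin2 as the pathway's own target gene, at a start site that lies inside its RefSeq span. Capitals mark a match to a TCF/LEF motif, searched as CTTTGAA, with CTTTGAT, likewise CTTTGTA, besides CTTTGTT, each on both strands.
Fzd1 promoter, chr5:4758167-4758466, minus strand: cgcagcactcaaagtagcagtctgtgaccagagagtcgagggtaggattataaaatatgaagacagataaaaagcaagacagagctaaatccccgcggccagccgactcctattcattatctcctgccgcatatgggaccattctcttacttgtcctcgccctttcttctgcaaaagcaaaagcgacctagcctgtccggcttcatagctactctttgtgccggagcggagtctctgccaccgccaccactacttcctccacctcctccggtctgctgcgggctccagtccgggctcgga
Fzd7 promoter, chr1:59481897-59482196, plus strand: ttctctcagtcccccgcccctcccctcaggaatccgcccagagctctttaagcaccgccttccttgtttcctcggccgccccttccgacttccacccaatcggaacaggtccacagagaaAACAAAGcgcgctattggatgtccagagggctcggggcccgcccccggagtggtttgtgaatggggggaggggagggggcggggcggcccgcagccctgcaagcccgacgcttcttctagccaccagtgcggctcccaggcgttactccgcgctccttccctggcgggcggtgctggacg
Axin2 promoter, chr11:108920099-108920398, plus strand: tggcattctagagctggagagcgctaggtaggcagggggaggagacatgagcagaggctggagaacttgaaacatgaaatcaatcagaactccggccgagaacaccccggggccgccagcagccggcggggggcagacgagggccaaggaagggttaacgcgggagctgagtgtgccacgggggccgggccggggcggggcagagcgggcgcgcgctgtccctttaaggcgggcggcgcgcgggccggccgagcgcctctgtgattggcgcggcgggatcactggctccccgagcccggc

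The motif matched once, in Fzd7, where CTTTGTT lies on the opposite strand, 130 bases before the start site. Of the 32851 promoter windows in the table, 16.9% held at least 1 of the 4 motifs. The Fzd1, Fzd4 and Axin2 windows held none, which says only that these letters are not in them. The windows held 16 CpG dinucleotides in Fzd1, 24 in Fzd7, 31 in Axin2 and 32 in Fzd4, against a median of 7 over all windows. Their GC content was 54.0%, 66.7%, 70.0% and 72.7% in the same order of genes, against a median of 52.7%.

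Against all genes above the floor, the 8 detected members were set out as counts. Of them, 2 (Fzd1 and Fzd2) were at least 2-fold higher at passage 18 than at 13, where 2.14% of 9067 genes were, and 0 were at least 2-fold lower, where 2.03% were. Between passages 14 and 13 no member differed 2-fold, where 1.95% of genes were higher and 2.99% lower. Between passages 18 and 14 the same 2 genes were at least 2-fold higher, where 6.43% of genes were, and 0 were lower, where 5.18% were. When all probe sets of a gene were summarised by their median, neither reached 2-fold between passages 18 and 13 (0.82 log2 units for Fzd1 and 0.68 for Fzd2), and between passages 18 and 14 Fzd1 alone did (1.19, and 0.58 for Fzd2). The median log2 difference of the 8 was 0.48 between passages 18 and 13 and -0.07 between 14 and 13, against -0.01 for all genes in both. Without the passage 18 culture the members thus showed no 2-fold difference. In limma's trend with passage number, 0 of 9661 genes tested passed (0%), with 340 at an unadjusted p under 0.05 and a smallest adjusted p of 0.891.

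**Figure D2:**
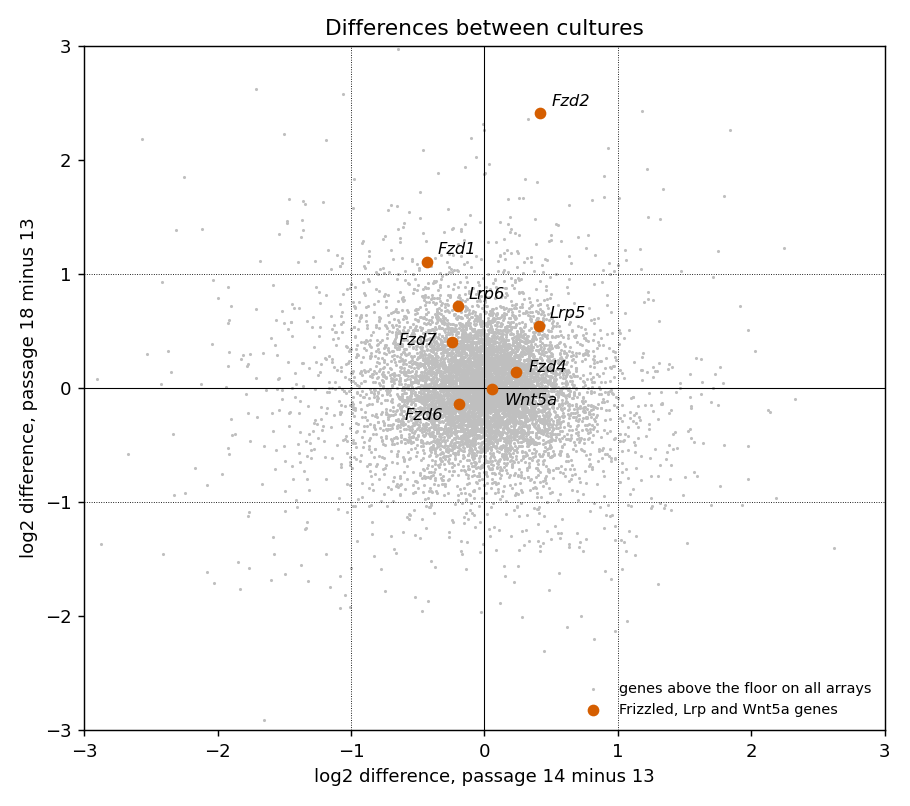
Log2 difference of passage 14 minus 13 (horizontal axis) against that of passage 18 minus 13 (vertical axis) for genes above the floor on all arrays, with the 8 detected members in orange, dotted lines at 2-fold, and 6 genes outside the axes. Fzd2 lies at 2.41 and Fzd1 at 1.11 on the vertical axis, and all 8 members lie within the 2-fold lines on the horizontal one.

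The order of the cultures split the members. Fzd1, Fzd7 and Lrp6 were highest at passage 18 and lowest at passage 14, an order that 25.7% of the detected genes had. Fzd2 and Lrp5 were highest at passage 18 and lowest at passage 13, as 12.1% of genes were. Fzd4 and Wnt5a were highest at passage 14 and Fzd6 at passage 13, with small steps. Fibroblast markers had the first of these orders in their medians, 1.44 log2 units higher at passage 18 than at 13 and -0.83 at passage 14 relative to 13. Not every marker held it: Col3a1, Mmp2, Twist1 and Prrx1, 4 of the 9 detected, were higher at passage 14 than at 13. The other 5 were lower, and Fbln1 was lowest at passage 18. Of all detected genes, 48.4% were higher at passage 14 than at 13. The summed intensity of the fibroblast markers was 3231, 2124 and 7863 units at passages 13, 14 and 18. The fibroblast markers Pdgfra, Dcn, Lum and Dpt were under the floor on all arrays, so 4 of the 16 measured were not detected at all. Mural markers were under the floor in 8 of 12, Rgs5 and Cspg4 among them, and their summed intensity was 6270, 1160 and 7485 units. Of the 3 mural genes above the floor on all arrays, Acta2 (5289 against 1467 units) and Pdgfrb (206.3 against 77.86) were higher at passage 18 than at 13. The third, Tagln, was lower (1756 against 4535). Notch3 was above the floor at passage 18 alone, with 65.5 units there. Pan-endothelial markers summed to 25156, 25158 and 16999 units, and lymphatic ones to 16533, 13220 and 12732. Which cells gave the Fzd1, Fzd2 and Rspo2 signals was not tested, and in such bulk RNA more cells of a type and more RNA per cell cannot be told apart.

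The genes whose pattern over the 3 arrays was most like that of a member were found among 10239 others above the floor on at least 1 array. Likeness was the largest distance, over the 3 arrays, between log2 values centred on each gene's mean. Among the 3 nearest of each, only Frk for Fzd2 (0.05 log2 units) and Arsj for Fzd1 (0.03) were above the floor on all arrays. The others were Arnt2 and Adamtsl3 for Fzd2 and Notch3 for Fzd1, above it at passage 18 alone, and Anks1b for Fzd1, above it on 2 arrays, so their distances rest on upper limits. No likeness was read for Rspo2, whose values at passages 13 and 14 are upper limits themselves. These are likenesses over 3 arrays and describe no more than that.

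The rest of the pathway was read from a list of 99 other genes, of which 97 were measured. Of these, 45 were above the floor on all arrays, 11 on some and 41 on none. In limma 50 were tested and 0 passed in either direction, with 4 at an unadjusted p under 0.05. At least 2-fold differences between passages 18 and 13 were found in 2 genes that were higher (4.44% of the 45, against 2.14% of all genes) and 2 that were lower (4.44% against 2.03%). Between passages 14 and 13, 0 were at least 2-fold higher (against 1.95% of all genes) and 4 lower (8.89%, against 2.99%). Between passages 18 and 14, 8 were at least 2-fold higher (17.8%, against 6.43%) and 2 lower (4.44%, against 5.18%). Between passages 18 and 13 their median log2 difference was 0.18, and between 14 and 13 it was -0.15, against -0.01 for all genes in both. The order with passage 18 highest and 14 lowest was held by 22 of the 45 (48.9%, against 25.7% of all genes).

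Of the 10 Frizzled genes measured, 7 were above the floor on all arrays, and 17 of the 19 Wnt ligands were under it on all arrays. Besides the members, Fzd8 read 273.7, 208.8 and 421.6 units at passages 13, 14 and 18, and Fzd5 read 739.3, 668.0 and 825.8. Both had the order of Fzd1. Fzd3 and Fzd10 were under the floor. The one other ligand that passed the floor on every array was Wnt9a, with 182.2, 78.7 and 145.1 units and its lowest value at passage 14. Wnt1, Wnt2 and Wnt2b were among those under the floor. Wls, which carries Wnt proteins to the cell surface, read 1270, 887.5 and 1810 units, again highest at passage 18, while Porcn and Notum were under the floor.

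Among R-spondin partners, the receptor Lgr4 read 294.8, 234.5 and 544.2 units at passages 13, 14 and 18, which is 1.85-fold higher at passage 18 than at 13. The ligase Znrf3 read 56.0, 69.2 and 71.1 units, close to the floor. Rspo1, Rspo4 and Lgr5 were under the floor. Rspo3, named after its values were seen, read 57.2, 15.8 and 248.1 units, so it was at least 5.05-fold higher at passage 18 than at 14. Of the Frizzled cofactors, Tspan12 read 203.7, 74.5 and 303.9 units and Reck 110.3, 56.0 and 181.7, both lowest at passage 14. Adgra2, a partner of Reck in Wnt7 signalling of brain vessels, was highest at passage 14 instead, at 345.8, 394.0 and 203.7 units. Norrin itself (Ndp) was under the floor.

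Of the 6 detected genes of non-canonical receptors and planar polarity, 4 were lower at passage 18 than at 13, where 51.1% of all detected genes were. Prickle1 read 211.7, 260.1 and 81.8 units at passages 13, 14 and 18, and was 2.59-fold lower at passage 18 than at 13. Vangl2 read 139.8, 131.7 and 107.4 units and Daam1 380.1, 361.7 and 299.1, both lowest at passage 18. Ror2, a Wnt5a receptor, was under the floor on all arrays, as were Celsr1 and Celsr3. Ryk, another receptor in this role, named after its values were seen, read 438.4, 422.5 and 422.2 units at passages 13, 14 and 18. Ror1 and Celsr2, named after their values were seen, were above the floor at passage 18 alone, with 79.8 and 112 units there.

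Of the secreted inhibitors and the Kremens, transmembrane receptors for Dkk proteins, Sfrp1 read 870.0, 562.7 and 1194 units at passages 13, 14 and 18, Kremen1 96.6, 86.6 and 113.5, and Dkk2 96.1, 115.7 and 111.3. None of these 3 differed 2-fold between passages 18 and 13. Dkk1, Dkk4 and Sfrp4 were under the floor. Dkk3, Sfrp2 and Frzb, named after their values were seen, lay above the floor on only some arrays. Dkk3 read 167.5, 47.7 and 518.9 units, at least 10.6-fold higher at passage 18 than at 14, and Sfrp2 read 60.4 at passage 18 alone. Frzb read 57.6, 131.2 and 25.6 units, under the floor at passage 18.

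Of the 13 detected genes of the cytoplasmic machinery, 0 differed 2-fold between any 2 cultures. Of all genes, 4.17% differed 2-fold in either direction between passages 18 and 13. That share was 4.94% for passages 14 and 13 and 11.6% for passages 18 and 14. The largest differences between passages 18 and 13 were those of Tnks, which marks Axin for destruction (941.7, 702.9 and 1401 units at passages 13, 14 and 18), Csnk1e (170.5, 87.5 and 119.3) and the β-catenin kinase Gsk3b (2151, 1941 and 2872). For Csnk1e the probe sets differ, since 1435373_at put passage 18 lowest, with a log2 difference from passage 13 of -1.25, against -0.52 in the brightest. Dvl2 was under the floor.

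All 9 detected nuclear factors were higher at passage 18 than at 13, where 48.4% of all genes were. Tcf7l2, a TCF factor that binds β-catenin, read 673.0, 773.7 and 1528 units at passages 13, 14 and 18, and its passage 18 signal was 2.27-fold that of passage 13. Tcf7l1 read 126.7, 84.7 and 178.1 units and the co-repressor Tle1 113.2, 125.7 and 144.6. Lef1 and Pygo1 were under the floor.

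Genes often named as Wnt targets did not move together. Sp5 read 990.1, 395.1 and 306.7 units at passages 13, 14 and 18, and was 3.23-fold lower at passage 18 than at 13. Ccnd1, which drives entry into the cell cycle, read 5484, 5140 and 3412 units, 1.61-fold lower at passage 18 than at 13. Apcdd1, an inhibitor that is itself a target, went the other way at 198.7, 277.7 and 484.5 units, 2.44-fold higher. That Apcdd1 probe set is one open to cross-hybridisation by its name. The only other Apcdd1 probe set above the floor on every array, 1449070_x_at, has such a name too, with a log2 difference of 1.18. No Apcdd1 probe set with a plain _at name passed the floor on every array. Tnfrsf19 was under the floor, as Axin2 was.

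**Figure D3:**
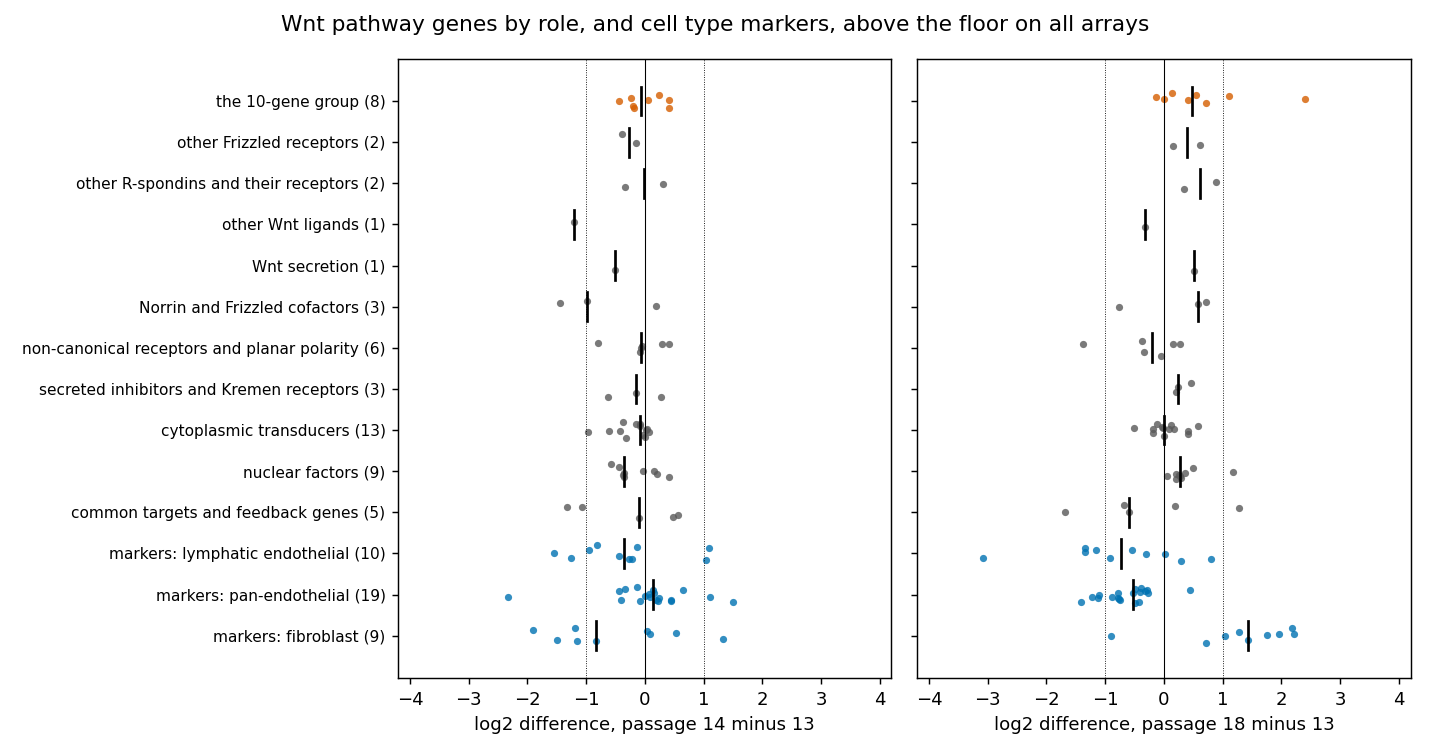
Log2 differences of passage 14 minus 13 (left) and 18 minus 13 (right) for the 10-gene group (orange), the other Wnt pathway genes by role (grey) and cell type markers (blue), over genes above the floor on all arrays, with their number in brackets. Black bars are medians and dotted lines 2-fold: at passage 18 the median is 0.48 for the 10-gene group, 0.27 for nuclear factors, -0.59 for common targets, -0.52 for pan-endothelial and 1.44 for fibroblast markers.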

How the data were processed

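RNA of 3 imLEC cultures was amplified in a single linear isothermal round and hybridised to 1-colour arrays, per the labels' protocols. The deposited table holds the authors' signal intensity values, 1 per probe set and array. The submitters' processing notes name MAS5, with no role, and the normalization is not given in the sources used here. Array medians were 25.7, 26.0 and 26.3 units and 95th percentiles 1363 to 1367, so no further scaling was applied and log2 was taken of the deposited intensity. Symbols came from the platform annotation and were updated by Entrez identifier to RefSeq genes (34741 of 34945 probe sets with 1 gene; 932 with several were not named, and 9160 have no gene name here). For gene-level values the probe set with the highest mean on the log2 scale stood for its gene. The floor list had 44 measured genes, of which 3 (Apoa2, Prm1 and Camk2a) passed it themselves.

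The trend with passage was estimated in R 4.3.3 by limma 3.58.1 (lmFit, then eBayes with an intensity trend) over all genes whose mean lay above the mean floor, with Benjamini-Hochberg adjustment, calls at an adjusted p under 0.05 and 1 residual degree of freedom per gene. It was tested on simulated data. Differences between cultures are 1 array against 1 array, with no test, and 3 arrays limit the precision of every value. The 10 genes, the gene lists and the rules were chosen with earlier results of these data known. The naming rule took, per role of the pathway list, up to 3 genes above the floor on all arrays with the largest absolute difference between passages 18 and 13 and up to 3 under it on all, and for each member spanning at least 1 log2 unit the 3 nearest patterns, except those of Rspo2, which rest on values under the floor. Further lists were lymphatic, pan-endothelial, fibroblast, mural, epithelial and leukocyte markers and cell cycle genes. Alternatives were the floor's percentile, the median of probe sets, leaving out probe sets that may cross-hybridise, quantile normalization of the arrays, centring on the median, an added 16 units, no filter and leaving out a culture.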

Additional observations from a re-analysis of the deposited data

How the results depend on the processing

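The trend with passage gave 0 calls under each of the 6 alternatives fitted in limma, with 344 to 731 genes or probe sets at an unadjusted p under 0.05, and has no residual degree of freedom with a culture left out. With the floor at the 99th percentile fewer genes were compared (6624), so that 2-fold differences numbered 197 for passages 18 and 13, 240 for 14 and 13, and 650 for 18 and 14, against 378, 448 and 1053. The share of higher genes among them was 42.1%, 47.9% and 46.9%, against 51.3%, 39.5% and 55.4%. Of the other Wnt pathway genes, that floor left 2 apart between passages 14 and 13 and 6 between 18 and 14, against 4 and 10. The median of probe sets gave 2 between passages 18 and 13 and 6 between 18 and 14, against 4 and 10. Without probe sets open to cross-hybridisation 7 differed between passages 14 and 13, against 4. The other 40 recomputed counts, those of the trend included, stayed within 1.5 times. Of the members' differences, 156 recomputed values moved by less than 1 SD of the gene's 3 values and 14 by more. No difference of at least 2-fold changed sign. Part of the 156 could not have moved by more. Every member's brightest probe set has a plain _at name, so the filter on names returned the main values for all members. Dropping passage 13 or 14 cannot shift a value by more than 1 SD of the same 3 values. These 2 settings therefore say nothing on how stable the members' differences are. With the median of probe sets the difference between passages 18 and 13 was 0.68 for Fzd2, against 2.41, 0.82 for Fzd1, against 1.11, and 0.55 for Wnt5a, against -0.004. Set against the mean of passages 13 and 14, the passage 18 value of Fzd2 was 2.20 (1.99 to 2.41 with either culture left out), that of Fzd1 1.32 (1.11 to 1.54) and that of Lrp6 0.81 (0.72 to 0.91), with no residual degree of freedom. The floor at the 90th percentile kept 14 member probe sets above it on all arrays and the 99th kept 10. No paired analysis was possible because the 3 cultures form 1 group.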

Other observations

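Cell cycle genes also differed between the cultures. Of 18 above the floor on all arrays, 18 had more signal at passage 14 than at 13 (median 1.12 log2 units), against 48.4% of all detected genes. At passage 18, 15 of them had less signal than at 13 (median -0.48), against 51.1% of all detected genes. Of the 14 leukocyte markers measured, 9 were under the floor on all arrays, Ptprc among them, and of 13 epithelial markers 7 were, among them Krt14, Cdh1 and Epcam. Their summed intensities at passages 13, 14 and 18 were 674, 590 and 393 units for leukocyte and 713, 553 and 887 units for epithelial markers. These sums include values under the floor. The 2 leukocyte markers above the floor on all arrays were Cd53 (244.3, 121.4 and 64.64 units at passages 13, 14 and 18) and Cd68 (126.9, 243.9 and 58.15). Both were at least 2-fold lower at passage 18 than at 13, where 2.03% of all genes were. A further 3 leukocyte markers were above the floor on some arrays. Of the 4 epithelial markers above the floor on all arrays, 3 were lower at passage 18 than at 13, against 51.1% of all detected genes. The median of the 4 was -0.08 log2 units, and Krt18 was higher, at 374 units against 231.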
